A study of Homo sapiens with 6 samples.

Results

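Interferon-stimulated and RNA-sensing genes were examined in the human lung adenocarcinoma line A549 as 40 genes chosen by name, of which 39 had a row among the 29476 genes of the expression table and 33 had enough counts to be tested. XAF1, the remaining listed gene, had no row and was not analysed here. The cells came in 2 groups of 3 libraries, each numbered 4, 5 and 6. The first group received a negative control siRNA (si-NC) and the second one directed at NORAD, a long noncoding RNA (si-NORAD), both delivered with Lipofectamine 3000 into cells kept in RPMI-1640 medium. Both groups were therefore exposed to a short RNA duplex and a lipid, and a response common to both transfections does not appear in their comparison. The cells are 1 line. Nothing in the labels ties the libraries to separate cultures, and the p-values below therefore measure only library-to-library spread, which may be technical.

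Cells detect foreign RNA through receptors such as RIG-I and MDA5 in the cytosol and TLR3 in endosomes, which switch on type I and type III interferon genes. Secreted interferon acts through JAK kinases and a complex that holds STAT2 and IRF9, which binds the interferon-stimulated response element (ISRE) in the promoters of its target genes. The products of those genes degrade viral RNA, block translation or mark proteins with ISG15, and several of them are themselves RNA sensors. Long RNA duplexes are strong triggers of this circuit, and some siRNAs can also start it, which makes these genes a common check on transfection experiments.

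The ISRE core is shown first because it is the sequence that links most of these genes to interferon. The letters GAAA, any 2 bases, then GAAA again, searched on both strands in the RefSeq promoter windows of build GRCh38.p14 (250 bases before to 50 after the gene start), were found in 21 of the 32 genes that had a window and in 3.57% of all 35116 windows. The STAT dimer motif TTCNNNGAA, which reads the same on both strands, was found in 9 of the 32 and in 7.66% of all windows. The stretches below belong to the 6 genes with the highest mean FPKM (the deposited level, scaled by gene length and depth) among those with an ISRE core wholly before the gene start. They are written 5' to 3' on the strand of the gene and hold up to 50 bases around the last core that lies wholly before the gene start. They end no later than that start and have each complete core in capitals. A core on the opposite strand reads TTTC, 2 bases, TTTC.
OAS3 (chr12:112938442-112938473, plus strand): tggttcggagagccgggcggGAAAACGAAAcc
IFI6 (chr1:27672256-27672305, minus strand): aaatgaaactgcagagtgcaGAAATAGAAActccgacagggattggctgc
ISG15 (chr1:1013370-1013419, plus strand): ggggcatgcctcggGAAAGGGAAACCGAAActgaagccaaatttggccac
IFIT5 (chr10:89414529-89414567, plus strand): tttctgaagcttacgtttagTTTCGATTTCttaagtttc
PARP14 (chr3:122680790-122680838, plus strand): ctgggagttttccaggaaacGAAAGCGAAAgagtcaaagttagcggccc
HERC5 (chr4:88457025-88457074, plus strand): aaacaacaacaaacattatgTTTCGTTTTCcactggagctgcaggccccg
In ISG15 a pair of cores overlaps, so that 16 capitals run together. The last core wholly before the gene start began 12 bases upstream in OAS3, 19 in IFIT5, 29 in PARP14, 74 in HERC5, 93 in IFI6 and 107 in ISG15. IFIT5 had a further core that began 4 bases upstream and ran across the start. Among the matched and tested genes, the 19 with a core had a median level of 2.28 FPKM and the 9 without one had 2.43 FPKM, and the median log2 fold changes of si-NORAD over si-NC were 0.09 and 0.06. A match is a run of letters and not a site shown to be bound.

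Total counts ran from 19332334 to 32760606 per library. NORAD, the targeted RNA, was at 550, 461 and 423 CPM (counts scaled to a common library size) over si-NC 4, 5 and 6, against 359, 372 and 400 CPM in si-NORAD 4, 5 and 6. Its log2 fold change was -0.34 (SE 0.11, adjusted p = 0.196), so NORAD itself did not pass the test. All 7 markers used for A549 epithelium were expressed, at a summed 11133 to 15548 CPM in si-NC and 11998 to 12104 CPM in si-NORAD. The lowest of them was EPCAM, at a mean of 4.68 CPM. Of the 7 leukocyte markers with a row 6 had a mean below 1 CPM, including PTPRC, and the exception was CD14 at 6.70 CPM. Of the 6 endothelial and fibroblast markers 4 had a mean below 1 CPM, the exceptions being KDR at 4.72 CPM and COL1A1 at 9.13 CPM. The extraction text of the labels speaks of retina, and of the 5 retina markers with a row 4 had a mean below 1 CPM, the exception being PDE6A. In bulk RNA, fewer cells carrying a transcript and less of it per cell cannot be told apart.

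No interferon-stimulated or RNA-sensing gene passed the test between si-NORAD and si-NC. Of the 33 tested, 0 had a Benjamini-Hochberg adjusted p under 0.05 in edgeR's quasi-likelihood test, against 0.00645% of all genes tested, which is 1 gene. At an unadjusted p under 0.05 there were 7, with 2 higher and 5 lower in si-NORAD, against 21.6% of all genes (9.51% higher and 12.1% lower). With library totals in place of scaling factors 0 passed (0.0129% of all genes), and with the replicate number as a block 0 passed (0.0129%). DESeq2 called 0 of the 19 to which it gave an adjusted p, against 4.59% of all genes with one, and 6 of 39 had an unadjusted p under 0.05, against 10.7% of all genes. The 33 genes had 20 log2 fold changes above 0 and 13 below, a median of 0.06 (0.0055 over all 15515 genes tested) and a range from -0.53 to 0.32. The 95% interval of every one of the 33 ended below a 2-fold rise, the highest upper bound being 0.90 (log2) for MX1. For 32 of the 33 the interval lay within 2-fold in both directions, as it did for 86.9% of all genes tested, and the exception was ISG15, whose interval reached -1.21. With DESeq2, with the replicate number as a block, or with a library left out, up to 2 upper bounds passed 1 (log2), the highest being 1.15 without si-NC 4. Those are limits gene by gene and do not show that the groups are alike.

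**Figure D1:**
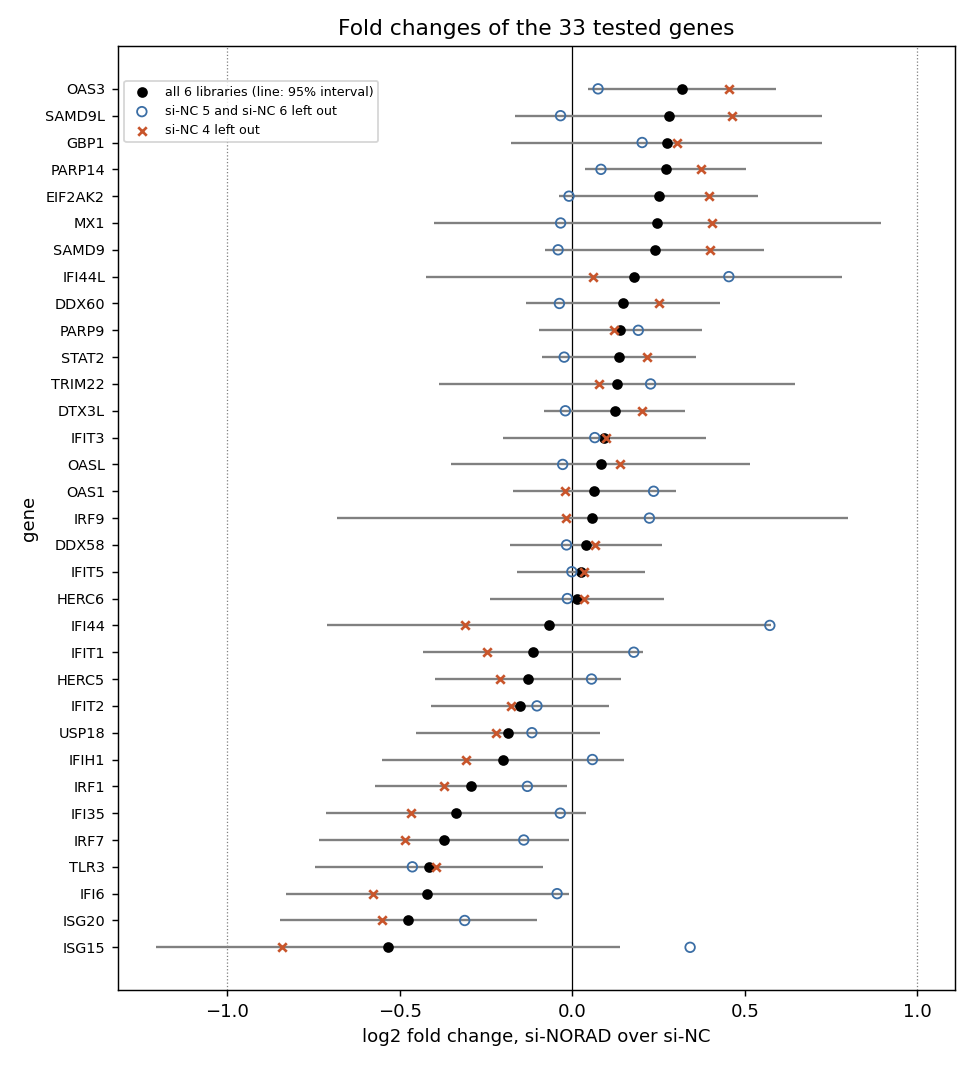
Log2 fold change of si-NORAD over si-NC for the 33 tested genes, with black points and 95% interval lines from all 6 libraries, blue circles with si-NC 4 alone against si-NORAD and red crosses with si-NC 4 left out. Dotted lines mark a 2-fold difference; black points run from -0.53 (ISG15) to 0.32 (OAS3), and ISG15 has its circle and its cross on opposite sides of 0.

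The levels themselves spanned a wide range. Per length, OAS3 was the most abundant at a mean of 13.5 FPKM (9.57 to 16.1 over the 6 libraries), followed by IFI6 at 11 (8.78 to 15.7), EIF2AK2 at 9.28 (6.54 to 10.4) and ISG15 at 7.75 (5.08 to 12.7), and the ranges of these neighbours overlapped. IFIT5 (6.88), IFI35 (6.56), DTX3L (5.65), PARP14 (5.50), OAS1 (5.13), USP18 (4.65) and STAT2 (4.51) came next by mean FPKM. The median of the 33 was 2.11 FPKM, against 3.98 FPKM over all genes tested. At the low end of the tested genes were MX1 (0.108 FPKM), IRF9 (0.142), TRIM22 (0.211) and IFI44L (0.212). The order was nearly the same in both groups (Spearman 0.98 between the group means of the 33 genes, a description across genes that share the same libraries).

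**Figure D2:**
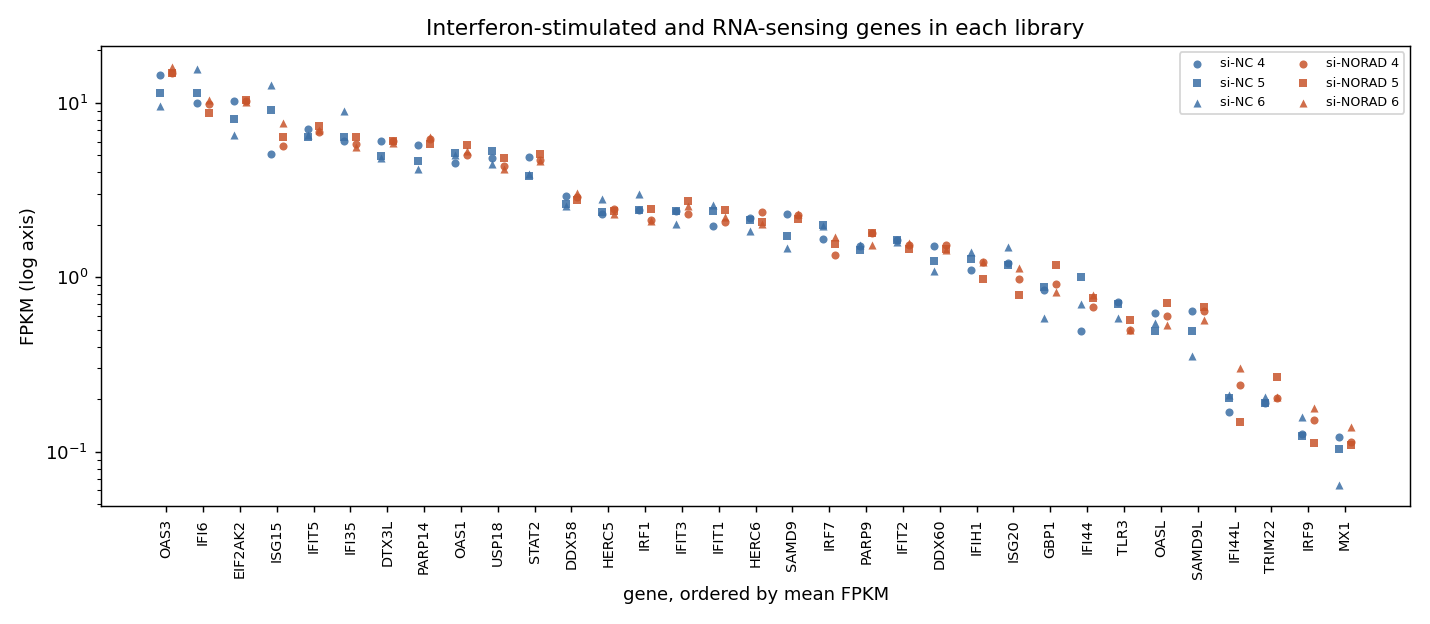
FPKM (log axis) of each tested gene in every library, blue for si-NC and red for si-NORAD, with genes ordered by mean FPKM and a marker shape for each library number. Levels run from 13.5 FPKM for OAS3 to 0.108 FPKM for MX1 on average, and the colours overlap for most genes.

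The cytosolic RNA sensors did not differ beyond their spread. DDX58, which encodes RIG-I, the sensor of 5'-triphosphate RNA, was at 12.5, 12 and 11.6 CPM over si-NC 4, 5 and 6, against 12.3, 11.9 and 13.0 CPM in si-NORAD 4, 5 and 6. Its log2 fold change was 0.04 with an interval from -0.18 to 0.26 (adjusted p = 0.824), among the narrowest of the set. IFIH1, which encodes MDA5, the sensor of long RNA duplexes, was at 5.53, 6.83 and 7.41 CPM in si-NC and 6.14, 4.90 and 6.13 CPM in si-NORAD. The IFIH1 groups overlapped, since si-NC 4 lay inside the si-NORAD range (log2 fold change -0.20, interval -0.55 to 0.15). DDX60, a helicase linked to RIG-I signalling, was at 10.1, 8.74 and 7.70 CPM against 10.2, 9.61 and 9.48 CPM (0.15, interval -0.13 to 0.43).

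TLR3, the endosomal receptor for RNA duplexes, was the sensor with the lowest p. It was at 4.73, 4.92 and 4.09 CPM over si-NC 4, 5 and 6, against 3.30, 3.74 and 3.29 CPM in si-NORAD 4, 5 and 6. All 3 si-NORAD values lay under the lowest si-NC value. Groups did not overlap for 5 of the 33 genes, 2 higher and 3 lower in si-NORAD, against 25.4% of all genes tested (12.7% in each direction). The log2 fold change of TLR3 was -0.42 (SE 0.15, unadjusted p = 0.0193, adjusted p = 0.200). It ranged from -0.49 to -0.36 when each library was left out in turn and was -0.46 with si-NC 4 alone against si-NORAD. TLR3 had 65 to 111 counts per library, which limits its precision.

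EIF2AK2 and OAS3, effectors that bind RNA duplexes, were the most abundant members by CPM. EIF2AK2, which encodes the kinase PKR that halts translation on binding RNA duplexes, was at 109, 90.5 and 73.4 CPM over si-NC 4, 5 and 6, against 108, 109 and 107 CPM in si-NORAD. The si-NORAD libraries and si-NC 4 had nearly the same EIF2AK2 level, and si-NC 5 and si-NC 6 were lower (0.25, interval -0.04 to 0.54, adjusted p = 0.277). With si-NC 4 as the sole control the value was -0.0095. OAS3, a synthetase of the 2'-5' oligoadenylates that activate RNase L, was at 117, 97.7 and 82.4 CPM in si-NC, against 121, 120 and 130 CPM in si-NORAD. Its groups did not overlap, although si-NC 4 came within a few CPM of si-NORAD 4 and si-NORAD 5 (0.32, SE 0.12, unadjusted p = 0.0268, adjusted p = 0.205). The OAS3 value was 0.45 without si-NC 4 and 0.075 with si-NC 4 alone against si-NORAD.

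OAS1, the neighbour of OAS3 on chromosome 12, was at 22, 26.6 and 26.0 CPM in si-NC, against 24.4, 28 and 25.7 CPM in si-NORAD (0.06, interval -0.17 to 0.30). OASL, a relative without synthetase activity that binds RIG-I, had 1.82 to 2.16 CPM in si-NC and 1.82 to 2.45 CPM in si-NORAD. OAS2, in the same cluster as OAS1 and OAS3, was almost silent, with 3, 3 and 2 counts in si-NC and 8, 3 and 4 counts in si-NORAD, and was not tested. The ratio of its summed counts, corrected for library size, was 1.62 with an exact 95% interval from 0.646 to 4.42, which covers counting error only. The OAS family thus ran from 13.5 FPKM for OAS3 to 0.0254 FPKM for OAS2 within neighbouring genes, with the same order in both groups.

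The transcription factors of the pathway showed both directions. STAT2, which carries the interferon signal from the receptor, was at 29.2, 24.4 and 25.0 CPM over si-NC 4, 5 and 6, against 28, 30.6 and 27.7 CPM in si-NORAD (0.13, interval -0.09 to 0.36). IRF1, a factor induced by interferon gamma, was at 18.6, 19.9 and 24.3 CPM against 16.4, 18.9 and 16.1 CPM. The IRF1 groups overlapped at si-NC 4 and si-NORAD 5, and its log2 fold change was -0.29 (SE 0.12, unadjusted p = 0.0411, adjusted p = 0.222). IRF7, which drives interferon alpha genes, had 4.26 to 5.46 CPM in si-NC and 3.44 to 4.36 CPM in si-NORAD, with si-NORAD 6 above si-NC 4 (-0.37, interval -0.73 to -0.01, adjusted p = 0.227). IRF9, the DNA-binding part of the STAT complex, was low at 9 to 19 counts per library. Of the exonic bases of IRF9, 48.4% are shared with the gene AL136295.5 on the same strand, so its level is uncertain.

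The IFIT family, whose proteins bind the 5' ends of foreign RNA, had log2 fold changes from -0.15 to 0.09. IFIT1, an indicator gene of the interferon response, was at 8.90, 11.5 and 12.5 CPM over si-NC 4, 5 and 6, against 9.41, 11 and 10.1 CPM in si-NORAD (-0.11, interval -0.43 to 0.21). IFIT2 was at 6.56, 6.96 and 6.83 CPM against 6.17, 5.82 and 6.33 CPM. The IFIT2 libraries of si-NORAD were all below those of si-NC, by a small margin (-0.15, interval -0.41 to 0.11, adjusted p = 0.437). IFIT3 was at 6.23, 6.61 and 5.58 CPM against 5.99, 7.12 and 6.64 CPM (0.09, interval -0.20 to 0.39). IFIT5, the most abundant of the family, was at 27.8, 26.7 and 27.6 CPM against 26.8, 29.1 and 27.7 CPM. Its interval from -0.16 to 0.21 around 0.02 was the narrowest of the family. The intervals of all 4 genes lay within 1.5-fold in both directions, as they did for 19 of the 33 genes and for 9159 of all 15515 genes tested. These genes lie in 1 cluster on chromosome 10 between positions 89283694 and 89421001 of GRCh38. Of the exonic bases of IFIT2, 8.68% are shared with the low RNA AL353751.1 on the same strand (mean 0.0830 CPM). LIPA, on the opposite strand at a mean of 111 CPM, overlaps IFIT1, IFIT2 and IFIT3. It shares 65 exonic bases with IFIT2 and 0 with IFIT1 and IFIT3. Some IFIT2 reads could belong to LIPA unless they were counted by strand.

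ISG15, a ubiquitin-like protein that is attached to newly made proteins, varied more among the si-NC libraries than between the groups. It was at 4.69, 8.92 and 12.5 CPM over si-NC 4, 5 and 6, against 5.21, 5.87 and 7.04 CPM in si-NORAD 4, 5 and 6. Its mean was 8.69 ± 3.90 CPM for si-NC and 6.04 ± 0.928 CPM for si-NORAD (SD, n = 3 each), and si-NC 4 was the lowest of all 6 libraries. The log2 fold change was -0.53 (SE 0.30, adjusted p = 0.310). It was -0.84 without si-NC 4 and 0.34 with si-NC 4 alone against si-NORAD, so its sign rested on which si-NC libraries were used.

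The genes USP18, HERC5 and HERC6 were steadier than ISG15. USP18, which removes ISG15 and damps interferon receptor signalling, was at 10.1, 11.7 and 9.92 CPM in si-NC and 9.11, 10.1 and 8.67 CPM in si-NORAD (-0.19, interval -0.45 to 0.08). HERC5, the main human ligase for ISG15, was at 10.8, 11.8 and 14.1 CPM against 11.5, 11.2 and 10.8 CPM (-0.13, interval -0.40 to 0.14). HERC6, its neighbour on chromosome 4, was at 12.5, 12.9 and 11.1 CPM against 13.5, 11.8 and 11.5 CPM (0.01, interval -0.24 to 0.27). The groups overlapped for all 3 of these genes.

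PARP9 and its partner DTX3L form an ADP-ribosyltransferase and ubiquitin ligase pair that enhances interferon signalling, and PARP14 is a related enzyme on the same chromosome arm. PARP14 was at 59.5, 51.1 and 46.1 CPM over si-NC 4, 5 and 6, against 63.7, 59.5 and 65.7 CPM in si-NORAD. The PARP14 groups did not overlap, but si-NC 4 and si-NORAD 5 were almost level (0.27, SE 0.10, unadjusted p = 0.0276, adjusted p = 0.206). PARP9 was at 13.2, 13.4 and 14.2 CPM against 15.8, 15.7 and 13.4 CPM (0.14, interval -0.10 to 0.38). DTX3L was at 35.1, 30.3 and 29.7 CPM against 35.0, 34.7 and 34.0 CPM (0.12, interval -0.08 to 0.33). PARP9 and DTX3L lie head to head on opposite strands and share 217 exonic bases, so some reads could belong to either unless they were counted by strand.

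Among the antiviral effectors, ISG20, an exonuclease that degrades RNA, had the lowest p of all 33 genes. It was at 8.67, 9.05 and 11.5 CPM over si-NC 4, 5 and 6, against 7.10, 5.69 and 8.21 CPM in si-NORAD. All 3 si-NORAD values lay under the lowest si-NC value (-0.47, SE 0.16, unadjusted p = 0.0178, adjusted p = 0.199). The ISG20 value ranged from -0.60 to -0.34 with each library left out in turn and was -0.31 with si-NC 4 alone against si-NORAD. SAMD9, a translational repressor that restricts poxviruses, was at 15.5, 12.3 and 10.5 CPM against 15.3, 14.4 and 15.5 CPM, with si-NC 4 level with the si-NORAD libraries (0.24, interval -0.08 to 0.56). Its paralog SAMD9L had 2.65 to 4.50 CPM in si-NC and 3.95 to 4.71 CPM in si-NORAD (0.28, interval -0.16 to 0.72). GBP1, a GTPase induced by interferon gamma, had 3.03 to 4.61 CPM and 4.0 to 5.78 CPM (0.27, interval -0.18 to 0.72). TRIM22, a ubiquitin ligase, had 1.12 to 1.3 CPM and 1.20 to 1.57 CPM (0.13, interval -0.39 to 0.64).

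Several genes that serve as standard readouts of an interferon response were at or near the detection limit in both groups. MX1, a GTPase that blocks influenza virus, had 22, 21 and 12 counts in si-NC and 32, 20 and 23 counts in si-NORAD (0.25, interval -0.40 to 0.90). MX2, a restriction factor of HIV, had 1 count in si-NC 5 and 0 in the other libraries. RSAD2, which encodes viperin, had 1, 0 and 2 counts in si-NC and 1, 1 and 0 in si-NORAD. Both genes were at or below 3 counts per group, and no ratio is given for them. CMPK2, the mitochondrial nucleotide kinase beside RSAD2, had 4, 3 and 1 counts against 2, 7 and 2 counts. BST2, which encodes tetherin, had 2, 2 and 5 counts against 1, 4 and 0 counts. The size-corrected ratios of si-NORAD over si-NC were 1.19 (exact 95% interval 0.436 to 3.41) for CMPK2 and 0.481 (0.127 to 1.60) for BST2, which covers counting error only. These intervals leave differences inside them undetectable at this depth.

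Among the remaining interferon-induced genes, IFI6 and IFI35 were highest in si-NC 6. IFI6, a small mitochondrial and endoplasmic reticulum protein, was at 8.43, 10.3 and 14.2 CPM over si-NC 4, 5 and 6, against 8.33, 7.44 and 8.77 CPM in si-NORAD. The highest IFI6 value was that of si-NC 6, and si-NC 4 lay inside the si-NORAD range (-0.42, SE 0.18, unadjusted p = 0.0456, adjusted p = 0.227). IFI35, a leucine zipper protein, was at 11.8, 13.2 and 18.6 CPM against 11.3, 12.4 and 10.7 CPM, again with si-NC 6 highest and si-NC 4 among the si-NORAD libraries (-0.34, interval -0.71 to 0.04). With si-NC 4 as the sole control, IFI6 was at -0.044 and IFI35 at -0.035 (log2). IFI44 had 0.984 to 2.13 CPM in si-NC and 1.35 to 1.57 CPM in si-NORAD (-0.07, interval -0.71 to 0.58). IFI44L, its neighbour on chromosome 1, had 1.69 to 2.26 CPM and 1.48 to 3.04 CPM (0.18, interval -0.42 to 0.78). IFI27, one of the genes most induced by interferon alpha, had 8, 7 and 7 counts in si-NC and 10, 17 and 8 in si-NORAD, a size-corrected ratio of 1.38 with an exact 95% interval from 0.785 to 2.46 that covers counting error only.

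Taken by library, the 33 genes lay on both sides of their means. Relative to the mean of the 6 libraries, their median log2 CPM was 0.00957, 0.0337 and 0.00394 for si-NC 4, 5 and 6, and the si-NORAD libraries had 0.00873, 0.0482 and 0.0067 in the same order. These medians are over genes that lie in both directions and do not show that a library is near the mean gene by gene. Within the si-NC libraries too, genes lay in both directions. In si-NC 6, ISG15 was at 0.84, IFI6 at 0.59 and IFI35 at 0.54 above their 6-library means, and MX1 was at -0.59, SAMD9L at -0.55 and EIF2AK2 at -0.42. In the same library the 6 tested antiviral effectors had the lowest median of the groups by role, at -0.43, although ISG20 was at 0.48 and TRIM22 at 0.04. The 4 tested genes of the IFI group had the highest, at 0.32. Other groups lay between, such as the RNA sensors at -0.04 and the IFIT family at 0.04. In si-NC 5 the medians were -0.02 for the antiviral effectors and 0.09 for the IFI group. For 24 of the 33 genes si-NC 4 was nearer to the si-NORAD mean than to that of the other si-NC libraries, as it was for 74.6% of all genes tested. With si-NC 4 as the sole control, 16 of the 33 log2 fold changes changed sign and the median was -0.0142.

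**Figure D3:**
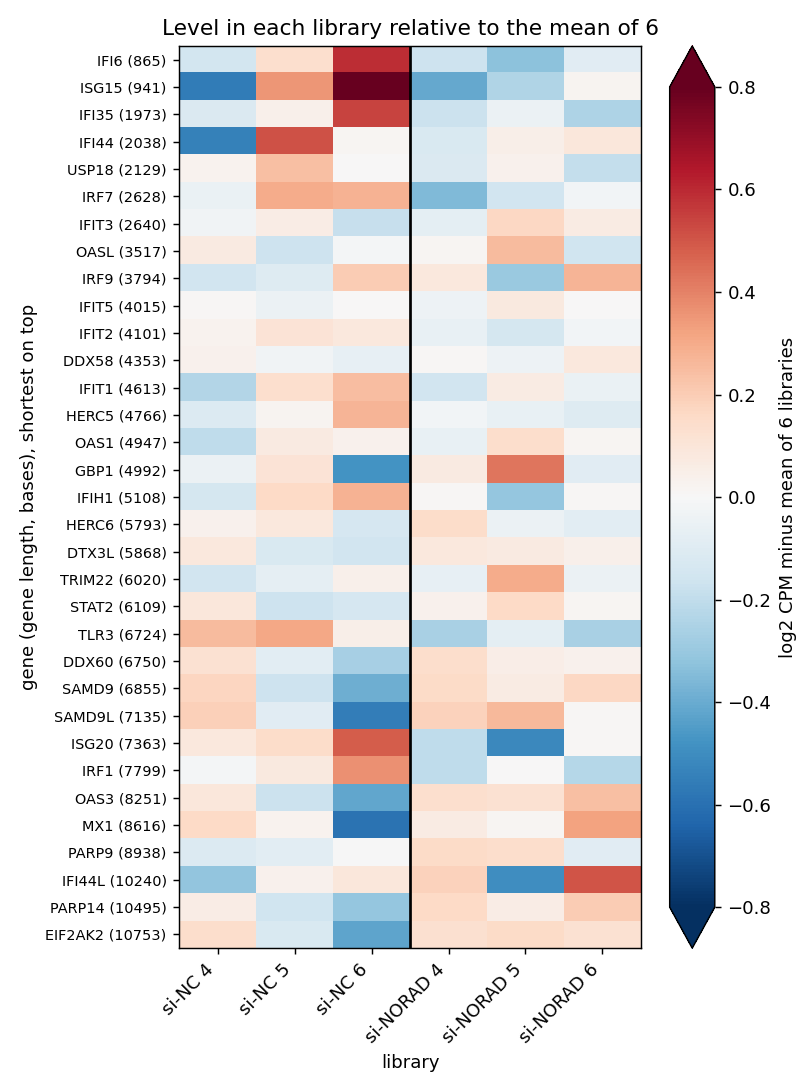
Log2 CPM of each tested gene in each library minus its mean over the 6 libraries, with genes ordered by gene length, shortest on top, and the line separating si-NC from si-NORAD. In si-NC 6 the short genes ISG15, IFI6 and IFI35 are high and the long genes EIF2AK2, OAS3 and PARP14 are low, and in si-NC 4 and the si-NORAD libraries the same 6 genes lie the opposite way, except ISG15 in si-NORAD 6, which is near its mean.

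Gene length moved with these differences. Of the 7 genes shorter than 3000 bases, 6 had a log2 fold change below 0 (median -0.34, against -0.16 for all tested genes of that length), and of the 14 genes longer than 6000 bases, 11 were above 0 (median 0.16, against 0.13). Across the 33 genes, log2 length and log2 fold change had a Pearson r of 0.61 and a Spearman rho of 0.61. Over all genes tested r was 0.29 and rho 0.38. Both are descriptions over genes that share the same 6 libraries. After each library was corrected for its trend over gene length, r was 0.33 for the 33 genes and 0.0019 for all genes. The trend was fitted on these same libraries, so part of this drop is built in. With si-NC 4 alone against si-NORAD r was -0.15 for the 33 genes and -0.043 for all genes. With the trend removed EIF2AK2 was at 0.08, PARP14 at 0.10, OAS3 at 0.21, IFI35 at -0.22, IFI6 at -0.34 and ISG15 at -0.44. TLR3, ISG20 and IRF1 had negative values and are longer than 6000 bases by the length used here. With the trend removed these 3 genes were further from 0, at -0.50, -0.58 and -0.41. The length is the one behind the deposited FPKM. It may exceed that of the transcripts present, which was not measured, and the correction would then be misplaced for such genes. With the trend removed, 0 of the 33 genes passed, against 0.0322% of all genes, and 5 had an unadjusted p under 0.05, against 21.7% of all genes.

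**Figure D4:**
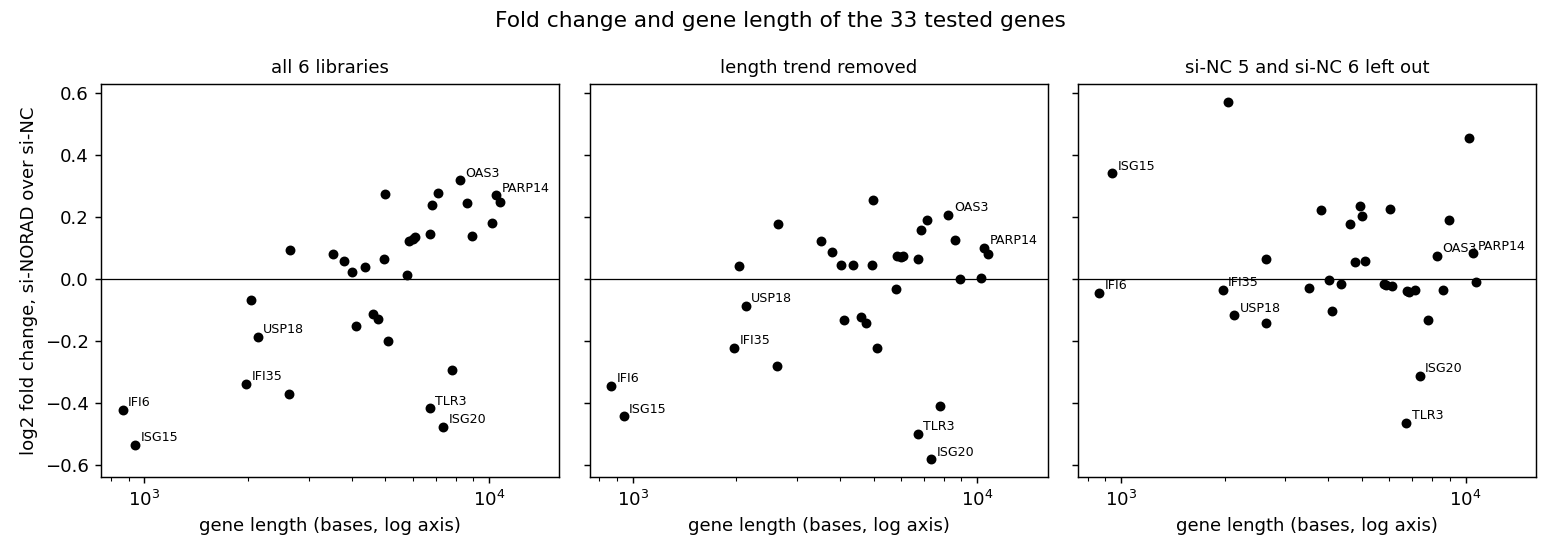
Log2 fold change of si-NORAD over si-NC against gene length (log axis) for the 33 tested genes in 3 fits, namely all 6 libraries, the trend over gene length removed, and si-NC 4 as the sole control. The points rise with length in the first panel (r 0.61), less so in the second (0.33) and not in the third (-0.15), while TLR3 and ISG20 stay below 0 in each.

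The calls depended on 1 library. Without si-NC 4 edgeR called 12 of the 33 genes, 6 higher in si-NORAD (OAS3, EIF2AK2, SAMD9, PARP14, STAT2 and DTX3L) and 6 lower (ISG15, IFI6, ISG20, IRF7, IFI35 and IRF1), where 39.3% of all genes were called. Leaving out any other library gave 0 calls among them, where 0% of all genes passed, or 0.00635% without si-NC 6. Without the low-count filter edgeR called 4 of 39, with OAS3 higher and ISG15, ISG20 and IFI6 lower, where 6.56% of all genes were called.

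Other genes of the circuit were taken from a list of 82, of which 74 had a row and 64 were tested. In edgeR 0 of the 64 passed, with 8 higher and 8 lower at an unadjusted p under 0.05, against 9.51% and 12.1% of all genes. The median log2 fold change of the 64 was -0.05. The interferon genes with a row had low counts. IFNL1 had 0, 3 and 2 counts in si-NC and 4, 4 and 1 in si-NORAD, IFNA1 and IFNL3 had 2 and 4 counts in all, and IFNB1 was not analysed here. IFNE, an epithelial type I interferon and the one interferon gene with enough counts to be tested, had 6, 11 and 17 counts in si-NC and 29, 10 and 18 in si-NORAD (0.52, interval -0.45 to 1.48, adjusted p = 0.474), and was added after its values were seen. Receptor chains differed widely in counts. Exons shared with other genes were not looked for in this wider list, so a low count here need not mean low expression. IFNAR1 was at 59.1, 61.2 and 58.1 CPM in si-NC and 56.7, 58.2 and 55.9 CPM in si-NORAD (-0.06, interval -0.23 to 0.10). Its partner chain IFNAR2 had only 7, 0 and 11 counts in si-NC and 7, 4 and 1 in si-NORAD and was not tested, and IL10RB, which pairs with IFNLR1, had 6 to 15 counts per library, both named after their values were seen. The log2 fold changes were -0.21 for IFNGR1, -0.13 for IFNGR2 and 0.31 for IFNLR1. Abundant signalling genes had log2 fold changes of 0.21 for the kinase JAK1, 0.11 for TRIM25, a ligase acting on RIG-I, and -0.06 for the feedback inhibitor SOCS3. DHX58, which encodes the regulator LGP2, had 3 to 9 counts per library and was not tested.

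Antigen presentation genes, which interferon also induces, held several of the larger differences of this wider list, but not the largest. The 64 tested genes ranged from -1.16 for CASP1 (5 to 18 counts per library) to 0.83 for IFITM3 (6 to 18 counts). Within antigen presentation, TAP1 at -0.10 and TAP2 at 0.09 were near 0. CASP1, IFITM3, TAP1 and TAP2 were named after their values were seen. B2M, the light chain of class I molecules, was at 296, 388 and 401 CPM over si-NC 4, 5 and 6, against 257, 292 and 265 CPM in si-NORAD. All 3 si-NORAD values lay under the lowest si-NC value (-0.42, SE 0.12, adjusted p = 0.196 in edgeR and 0.0353 in DESeq2). The class I heavy chains HLA-B at -0.51, HLA-C at -0.30, the immunoproteasome subunit PSMB9 at -0.53 and NLRC5, the activator of class I genes, at 0.56 were chosen after their values were seen. DESeq2 called 3 of the 47 listed genes to which it gave an adjusted p, B2M, HLA-B and PSMB9, all lower, where it called 4.59% of all genes. With si-NC 4 as the sole control the values were -0.13 for B2M, -0.21 for HLA-B, -0.12 for HLA-C, -0.18 for PSMB9 and 0.55 for NLRC5. Reads of the similar HLA genes could be split among them. The other abundant genes of the list were LY6E at -0.25 and LGALS3BP at -0.02, which turned to 0.04 with library totals in place of scaling factors.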

How the data were processed

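RNA sequencing of A549 cells was analysed in 3 si-NC and 3 si-NORAD libraries. Per the labels' protocols, total RNA was depleted of ribosomal RNA and made into directional libraries. The submitters' processing notes name GRCh38 and the tools HISAT2, HTSeq 0.6.1 and FastQC; the strand setting of the counting was not given in the sources used. The deposited table holds raw read counts per gene, with no normalization, and FPKM, both made by the authors. Count divided by FPKM and library total gave 1 length per gene for 100% of values (tolerance 0.1%), used here as gene length. The lengths of the transcripts present were not measured. There were 0 columns of other samples. All 29476 IDs were in GENCODE 29, which gave positions and overlaps.

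Counts were tested with edgeR 4.0.16 (R 4.3.3): filterByExpr (15515 genes), TMM scaling, robust quasi-likelihood F test, two-sided, no covariate, Benjamini-Hochberg adjustment over all genes, called under 0.05. CPM use TMM-scaled library sizes, log2 CPM a prior count of 2, and intervals the standard error and moderated degrees of freedom. The fit was tested on simulated data in which counts were drawn independently for each gene. That simulation held no shift shared across genes in a library and no trend over gene length, so it does not cover those. The 40 genes and the lists were chosen with earlier results of these data known. Alternatives were RLE factors, library totals, no filter, DESeq2 1.42.0, the replicate number as a block, removal of the trend over gene length (loess, span 0.3, as an offset), each library left out, and si-NC 5 and si-NC 6 left out, where 1 control library remains, its spread is taken from the si-NORAD group, and only effect sizes are used. Values in every library are given for tested genes with a mean of at least 5 CPM or with groups that do not overlap; of the wider list, IFNB1, DHX58 and the 4 genes with the highest FPKM per role were named, except genes that are not reported here. Promoters were scanned with Python 3.11.15 in RefSeq windows, and for 7 of 39 genes no window was matched. Exact intervals of count ratios used scipy 1.17.1, and figures matplotlib 3.10.9.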

Additional observations from a re-analysis of the deposited data

How the results depend on the processing

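The absence of calls among the 33 genes held with RLE factors, library totals, the replicate block and the trend over gene length removed. With DESeq2 it held for the 19 genes to which an adjusted p was given, and the rest could not be called. Without the low-count filter 4 of 39 passed, and 0 to 12 passed when each library was left out, the 12 without si-NC 4. Of the wider list 7 of 74 passed without the filter, 3 of 47 with DESeq2 and 0 to 26 of 64 with each library left out, the 26 without si-NC 4. In those fits 6.56%, 4.59% and, without si-NC 4, 39.3% of all genes passed. The median of the 33 was 0.119 with library totals, where the median of all genes was 0.0658, then -0.0142 with si-NC 4 alone against si-NORAD and 0.00858 to 0.0557 with each library left out. The cause of these shifts was not tested. Signs turned, with log2 fold changes as follows. With si-NC 4 as the sole control they were 0.0584 for IFIH1, -0.0166 for DDX58, -0.00946 for EIF2AK2, -0.0372 for DDX60, -0.0277 for OASL, -0.0234 for STAT2, 0.178 for IFIT1, -0.00118 for IFIT5, 0.341 for ISG15, 0.0558 for HERC5, -0.0142 for HERC6, -0.02 for DTX3L, -0.0337 for MX1, -0.041 for SAMD9, -0.0339 for SAMD9L, 0.572 for IFI44, -0.0283 for TRIM25, 0.0319 for LGALS3BP and 0.0971 for LY6E. With the length trend removed they were -0.031 for HERC6, 0.0414 for IFI44, 0.0186 for SOCS3, -0.0361 for TRIM25 and 0.0152 for LGALS3BP. With library totals the value was 0.0372 for LGALS3BP. With each library left out the ranges were -0.0214 to 0.115 for OAS1, -0.028 to 0.167 for OASL, -0.0647 to 0.203 for IRF9, -0.00882 to 0.0519 for IFIT5, -0.0662 to 0.0557 for HERC6, -0.00125 to 0.21 for TRIM22, -0.31 to 0.248 for IFI44, -0.0336 to 0.405 for IFI44L, -0.116 to 0.00478 for SOCS3 and -0.0688 to 0.0462 for LGALS3BP. In the replicate block fit 0 of the 33 passed and the median was 0.0584. Deviations of same-numbered libraries from their group means correlated at -0.029, -0.020 and -0.065, which gives no sign of pairing. Whether same-numbered libraries were prepared together cannot be told from these values. Members below about 5 CPM have intervals too wide to show small differences.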
